A study of Homo sapiens with 24 samples.

Results

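RGS genes encode regulators of G protein signaling, and 8 of them (RGS1, RGS2, RGS3, RGS10, RGS14, RGS16, RGS18 and RGS19) were followed here, of 19775 genes with a probe set of their own. The genes were chosen by their measured responses in earlier results of these data, so their values are a description. The adjusted p-values and counts below come from the same data and are no independent support for the choice. They were measured by 18 probe sets that the platform annotation gives to the gene alone, and the main probe set of a gene was selected on its mean log2 signal over the 24 arrays, the highest being kept. RNA was taken from MV4-11 and MOLM-14 cells, human acute myeloid leukemia lines with an internal tandem duplication of the receptor kinase FLT3 (FLT3-ITD). MOLM-14 also carries a wild-type allele of FLT3, and MV4-11 has only the mutated one. Each line was treated for 24 hours with the combination of both drugs, with ABT-869 (3 nM), an inhibitor of FLT3 and other receptor tyrosine kinases, with SAHA (6 µM), an inhibitor of histone deacetylases, or with DMSO, the solvent. For the combination on the arrays no separate doses are stated. Each of the 8 groups held 3 arrays, described in the study as biological triplicates, and each line is a single established culture, so n counts cultures of that line. In RNA from whole cultures, fewer cells of a kind and less RNA per cell cannot be told apart.

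RGS proteins speed up the hydrolysis of GTP by G protein alpha subunits and so end the signal of G protein-coupled receptors. Members of the R4 family, which are mostly little more than the RGS domain (RGS1, RGS2, RGS16 and RGS18, with RGS3 as a larger member), are known to change with cell activation. RGS10 and RGS14 belong to the R12 family, and RGS19, also called GAIP, to the RZ family. In blood cells these proteins are known for setting the strength of responses to chemokines.

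The values were the deposited linear signals, already scaled by the authors so that the mean without the outer 2% of values was 500.1 in each sample. The median signal was 78.5 to 99.4 on MV4-11 arrays and 61.2 to 80.6 on MOLM-14 arrays. Deviations from the group mean (SD on the log2 scale, over probe sets above the median level) exceeded 0.3 on 5 arrays, which were MV4-11 ABT-869 replicate 2, MV4-11 combination replicates 2 and 3, MOLM-14 combination replicate 1 and MOLM-14 DMSO replicate 3. Myeloid markers were present, with 9 of 10 at a median signal above 500, among them FLT3 at 12703 and LYZ at 14217, while CD14 had a median of only 10. T cell markers had medians of 80.1 or less and platelet markers of 120 or less. Of the 4 B cell markers PAX5 stood at a median of 601 and of the 4 erythroid markers EPOR at 1113, with the summed erythroid markers at 813 to 1324 in MV4-11 combination arrays and 1706 to 2343 in MV4-11 DMSO arrays. The part of these markers in the results was not tested.

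Several R4 genes lie side by side. By the RefSeq annotation of GRCh38.p14, RGS18, RGS21, RGS1, RGS13 and RGS2 follow one another on chromosome 1 with no other protein-coding gene between them, and RGS16 lies elsewhere on the same chromosome beside RGS8. RGS3 is on chromosome 9, RGS10 on chromosome 10, RGS14 on chromosome 5 and RGS19 on chromosome 20. The 250 bases before the start of the 4 genes that carry most of the results are shown from the RefSeq table (GRCh38.p14), because these genes moved together in some conditions and apart in others. They span chr1:192575523-192575772 on the plus strand (RGS1), chr1:192808789-192809038 on the plus strand (RGS2), chr1:192158212-192158461 on the plus strand (RGS18) and chr1:182604390-182604639 on the minus strand (RGS16).
RGS1: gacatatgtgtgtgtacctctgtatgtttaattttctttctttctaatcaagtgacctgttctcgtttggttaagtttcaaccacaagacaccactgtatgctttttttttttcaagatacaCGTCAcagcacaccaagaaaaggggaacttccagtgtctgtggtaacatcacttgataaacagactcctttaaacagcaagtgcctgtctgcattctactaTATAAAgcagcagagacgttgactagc
RGS2: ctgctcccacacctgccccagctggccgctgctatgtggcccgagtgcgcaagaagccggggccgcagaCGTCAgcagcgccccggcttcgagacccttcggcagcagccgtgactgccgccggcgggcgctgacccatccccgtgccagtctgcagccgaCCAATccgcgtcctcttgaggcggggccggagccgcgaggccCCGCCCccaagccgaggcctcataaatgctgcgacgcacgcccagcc
RGS18: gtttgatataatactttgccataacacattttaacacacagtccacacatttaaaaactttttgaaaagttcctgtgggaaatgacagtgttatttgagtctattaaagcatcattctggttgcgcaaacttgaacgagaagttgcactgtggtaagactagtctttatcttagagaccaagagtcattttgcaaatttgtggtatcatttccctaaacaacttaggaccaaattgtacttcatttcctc
RGS16: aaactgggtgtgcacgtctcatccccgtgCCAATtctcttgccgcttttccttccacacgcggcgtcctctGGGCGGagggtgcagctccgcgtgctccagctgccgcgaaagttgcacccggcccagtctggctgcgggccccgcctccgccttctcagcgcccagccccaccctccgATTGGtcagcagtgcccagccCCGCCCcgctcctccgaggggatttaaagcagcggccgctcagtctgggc
Capitals mark matches on either strand to the TATA box TATAAA, the CCAAT box CCAAT, the GC box GGGCGG and TGACG, the short form of the cyclic AMP response element. The STAT motif TTCNNNGAA, the AP-1 motif TGANTCA and the full element TGACGTCA were also searched and had no match in these 4 windows. Of all 35116 windows 6.57% hold the STAT motif, 6.57% the AP-1 motif and 1.65% the full element, so their absence here is unremarkable. The motifs were chosen with these sequences in view, and a match is a description only. RGS1 held TATAAA, starting 27 bases before the start site, which 10.7% of 35116 windows of this length hold. RGS1 and RGS2 each held TGACG, which 21.2% hold. RGS2 and RGS16 held CCAAT (32% of windows) and GGGCGG (42.6%), at 2 places each in RGS16, while RGS18 held no match to any of them. The windows of RGS1 and RGS18 had a GC content of 39.2% and 34.8%, those of RGS2 and RGS16 72.8% and 68.4%, against a median of 58% over all windows.

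The 8 genes differed in how far they varied over the 8 groups. The ratio of the highest to the lowest group mean (taken on the log2 scale) was 16.4 for RGS1, 3.87 for RGS2, 3.53 for RGS3, 3.17 for RGS16 and 2.53 for RGS18, but only 1.55 for RGS19, 1.28 for RGS14 and 1.25 for RGS10. The ratio of RGS3 rested on MV4-11 combination replicate 3, with a signal of 11.6, and was 1.9 without that array, a setting chosen after seeing the data. A gene was counted as changed where limma gave an adjusted p under 0.05 over all 54613 probe sets. The shares over all probe sets include dim ones, while the main probe sets of the 8 genes lay at the 60.2 to 96.3 percentile of level. Counts among genes chosen by their responses can exceed such shares by that choice alone. In MV4-11 the combination lowered RGS1 and RGS16 and raised RGS18, 3 of 8 genes, where 8.94% of all probe sets were called. ABT-869 alone lowered 2 of 8, RGS1 and RGS16 (0.862% of all probe sets), and SAHA raised 1 of 8, RGS18 (2.46%). In MOLM-14 the combination raised 2 of 8, RGS2 and RGS18 (5.96% of all probe sets), and SAHA raised 4 of 8, RGS2, RGS3, RGS16 and RGS18 (5.32%). ABT-869 changed 0 of 8 in MOLM-14, where 0.0165% of all probe sets were called. At an unadjusted p under 0.05 were 3 of 8 genes, and 3970 of all 54613 probe sets. Limma-trend called 2 of the 8 genes with ABT-869 in MOLM-14, but its own share over all probe sets was not counted. The median log2 difference over the 8 genes was −0.32 with the combination, −0.07 with ABT-869 and −0.01 with SAHA in MV4-11. In MOLM-14 it was −0.04 with the combination, −0.22 with ABT-869 and 0.66 with SAHA. Over all probe sets these medians lay between −0.05 and 0.05, except for SAHA in MOLM-14, where the median was −0.14. The 4 calls with SAHA in MOLM-14 held when the arrays were centred on their medians. The 3 treatments of a line share their 3 DMSO arrays.

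**Figure D1:**
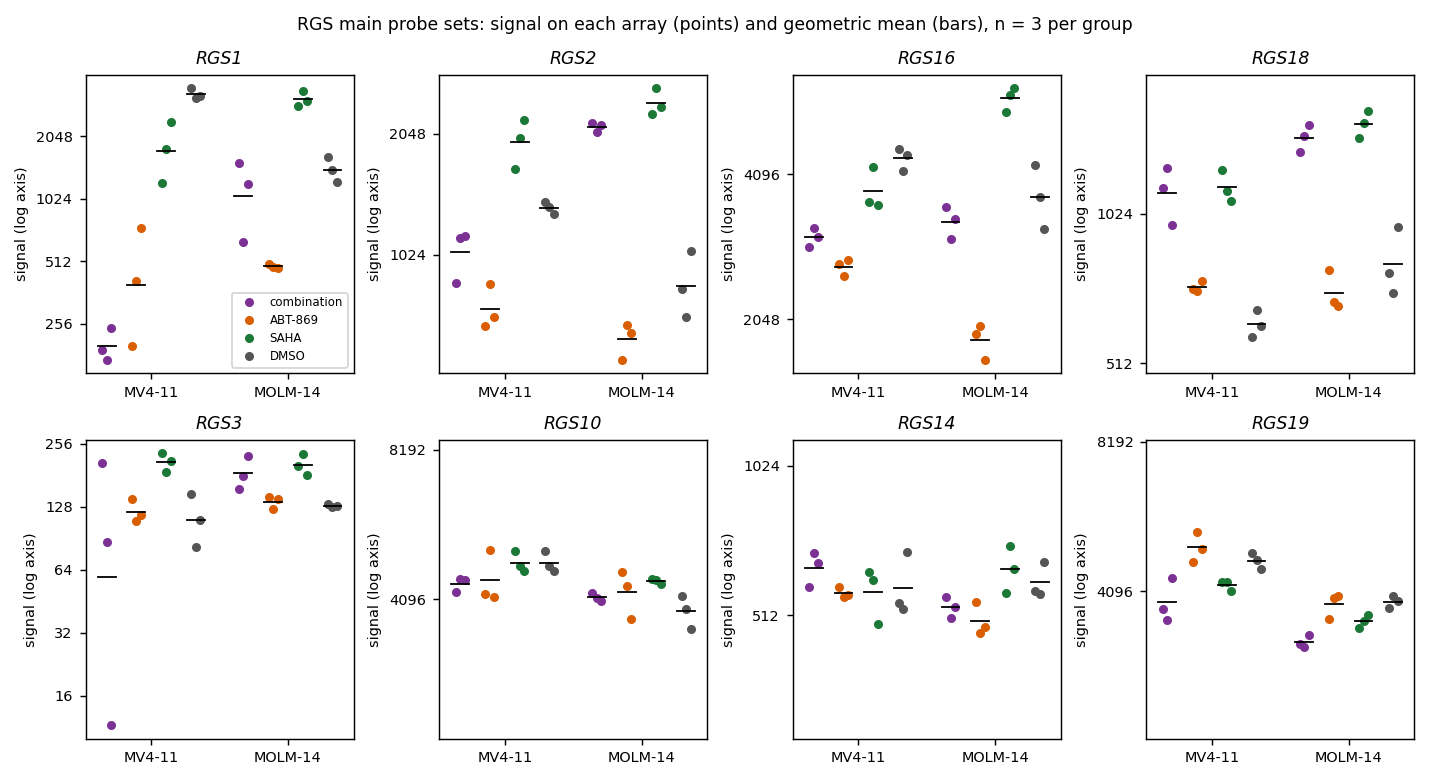
Signal (linear values, log axis) of the main probe set of each RGS gene on each of the 24 arrays, in the order combination, ABT-869, SAHA and DMSO within each line; points are arrays and bars are means of log2 values, 3 arrays per group. RGS1 in MV4-11 lay between 171.4 and 245.3 with the combination and between 3137.2 and 3494.6 with DMSO, while RGS10 and RGS14 stayed within a narrow band.

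RGS1, known from B cells, where it dampens migration toward chemokines, showed the widest range. In MV4-11 its signal was 190.7, 171.4 and 245.3 with the combination, 199.3, 411.2 and 741.5 with ABT-869, 1222, 1781.6 and 2399.8 with SAHA, and 3494.6, 3137.2 and 3218.4 with DMSO. Every treated array was below every DMSO array, and the ABT-869 arrays were the most scattered. The combination lowered RGS1 16.4-fold against DMSO (log2 difference −4.03, SE 0.43, adjusted p = 0.000968), and ABT-869 lowered it 8.34-fold (−3.06, SE 0.43), a fall that was already known when the genes were chosen. With SAHA the difference was −0.92 (SE 0.43, adjusted p = 0.342), which did not pass the test. In MOLM-14 the signal was 1528, 633.2 and 1211.8 with the combination, 495.3, 481.6 and 472.8 with ABT-869, 2857.9, 3393.2 and 3034.3 with SAHA, and 1622.7, 1410.8 and 1232.6 with DMSO. Here SAHA arrays were the highest and ABT-869 arrays the lowest, both apart from DMSO, and combination arrays overlapped with DMSO. The log2 differences from DMSO were −0.42 (adjusted p = 0.492) with the combination, −1.55 (0.22) with ABT-869 and 1.13 (0.0515) with SAHA, each with an SE of 0.28. The ABT-869 difference passed without MOLM-14 combination replicate 2 (adjusted p = 0.0337), and that of SAHA without combination replicate 1 or 2 (0.0344 and 0.0147). Those arrays are on neither side of these comparisons, and the differences were unchanged without them. They enter only through the estimate of spread shared by the line. From high to low the groups ran MV4-11 DMSO, MOLM-14 SAHA, MV4-11 SAHA, MOLM-14 DMSO, MOLM-14 combination, MOLM-14 ABT-869, MV4-11 ABT-869 and MV4-11 combination. Neighbors in that order overlapped except MOLM-14 SAHA from MV4-11 SAHA and MOLM-14 combination from MOLM-14 ABT-869.
The combination call in MV4-11 held without any single array (adjusted p 0.000548 to 0.00628). It did not hold without the 5 deviating arrays, which left 1 combination array, assumed to vary like the other groups (log2 difference −4.10, adjusted p = 0.0555, in a range of 1e-06 to 0.0679 over the 9 other settings). The ABT-869 call was lost without DMSO replicate 1, 2 or 3 or ABT-869 replicate 2 (adjusted p up to 0.069) and without the 5 arrays (0.116, in a range of 0.000105 to 0.325).

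RGS2, which prefers the Gq class of alpha subunits, responded differently in the lines. In MOLM-14 the signal was 2181.1, 2062 and 2150.3 with the combination, 560.5, 685.1 and 653.2 with ABT-869, 2285.9, 2657.6 and 2390.7 with SAHA, and 841.9, 714.5 and 1048.6 with DMSO. All SAHA and combination arrays were above all DMSO arrays, and all ABT-869 arrays below them. SAHA raised RGS2 2.84-fold (log2 difference 1.51, SE 0.15, adjusted p = 0.00415) and the combination 2.48-fold (1.31, SE 0.15, adjusted p = 0.00395), while ABT-869 gave −0.44 (adjusted p = 0.585). Both calls held without any single array and in all 9 other settings. RGS2 has 1 probe set and no signal under 32. Its differences were therefore unchanged with the mean of the probe sets, with a floor of 32 and without dim probe sets. In MV4-11 the signal was 871.3, 1123.9 and 1138.4 with the combination, 679, 866.9 and 715.2 with ABT-869, 1672.5, 2002.3 and 2210.9 with SAHA, and 1380.8, 1344.6 and 1290.8 with DMSO. The groups did not overlap with DMSO, but no difference passed the test there. The log2 differences in MV4-11 were −0.37 (adjusted p = 0.222) with the combination, −0.84 (0.0589) with ABT-869 and 0.54 (0.137) with SAHA, each with an SE of 0.16. The ABT-869 difference passed in 4 settings, among them a floor of 32 (0.0147) and limma-trend (0.00198). The SAHA rise in MV4-11 passed without dim probe sets (0.0332), with limma-trend (0.0209) and in 1 fit over the 24 arrays (0.0413). From high to low RGS2 ran MOLM-14 SAHA, MOLM-14 combination, MV4-11 SAHA, MV4-11 DMSO, MV4-11 combination, MOLM-14 DMSO, MV4-11 ABT-869 and MOLM-14 ABT-869, and MOLM-14 combination overlapped with MV4-11 SAHA, as did each group with the next from MV4-11 combination down.

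RGS16, an inducible member that acts on the Gi and Gq classes, had every ABT-869 array below every DMSO array in both lines. In MV4-11 the signal was 2893.9, 3161.6 and 3038 with the combination, 2672.7, 2515.7 and 2718.1 with ABT-869, 3583.9, 4239.2 and 3534.9 with SAHA, and 4620.9, 4153.2 and 4489.2 with DMSO. Combination and ABT-869 arrays lay below all DMSO arrays, and SAHA arrays overlapped with them. ABT-869 lowered it 1.68-fold (log2 difference −0.75, SE 0.12, adjusted p = 0.028) and the combination 1.46-fold (−0.54, SE 0.12, adjusted p = 0.022), while SAHA gave −0.23 (adjusted p = 0.402). In MOLM-14 the signal was 3494, 3009.1 and 3310 with the combination, 1907.8, 1986.8 and 1686.3 with ABT-869, 5506.4, 5984.8 and 6180.2 with SAHA, and 4284.8, 3677.9 and 3153.5 with DMSO. SAHA arrays were all above DMSO arrays and ABT-869 arrays all below them. SAHA raised RGS16 1.6-fold (log2 difference 0.68, SE 0.14, adjusted p = 0.0269), ABT-869 gave −0.99 (SE 0.14, adjusted p = 0.0977) and the combination −0.17 (0.596). The ABT-869 difference in MOLM-14 had an adjusted p under 0.05 in 4 settings, the lowest 0.000521 with limma-trend.
These calls were close to the threshold, and all 3 were lost with a replicate block and with the mean of the probe sets of the gene. Those in MV4-11 were also lost with the arrays centred on their medians. With ABT-869 in MV4-11 the call was lost without any DMSO or ABT-869 array or SAHA replicate 1 (adjusted p up to 0.1), and with the combination without any DMSO array or combination replicate 1 or 3 (up to 0.0773). With SAHA in MOLM-14 it was lost without any SAHA array or DMSO replicate 2 or 3 (up to 0.0955), and all 3 were lost without the 5 deviating arrays.

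RGS18, known from platelets, megakaryocytes and myeloid cells, rose with SAHA and with the combination in both lines. In MV4-11 the signal was 1155.2, 1267.6 and 974.5 with the combination, 723.6, 715.4 and 751.5 with ABT-869, 1252.2, 1139.9 and 1089.5 with SAHA, and 579.5, 654.9 and 609 with DMSO. In MOLM-14 it was 1365.2, 1470.7 and 1543.9 with the combination, 788.2, 682 and 668.3 with ABT-869, 1455.1, 1560.9 and 1647.4 with SAHA, and 779.4, 711 and 962.2 with DMSO. In each line every SAHA and every combination array was above every array without SAHA. The rise with the combination was 1.83-fold in MV4-11 (log2 difference 0.88, SE 0.13, adjusted p = 0.00423) and 1.8-fold in MOLM-14 (0.85, SE 0.14, adjusted p = 0.0103). With SAHA it was 1.89-fold in MV4-11 (0.92, SE 0.13, adjusted p = 0.0101) and 1.91-fold in MOLM-14 (0.94, SE 0.14, adjusted p = 0.0101). With ABT-869 the log2 difference was 0.25 (adjusted p = 0.458) in MV4-11 and −0.19 (0.811) in MOLM-14. The 4 calls held without any single array (adjusted p up to 0.0497), and only that of the combination in MV4-11 was lost without the 5 deviating arrays (0.057, in a range of 6.78e-05 to 0.057 over the 9 other settings). The 5 platelet markers had median signals of 5.7 (PPBP) to 120 (GP1BA), with PF4 at 88.4 and ITGA2B at 82.2. The summed platelet markers were 316 to 558 in MV4-11 combination arrays and 465 to 659 in MV4-11 DMSO arrays. They were 278 to 388 in MOLM-14 combination arrays and 365 to 417 in MOLM-14 DMSO arrays. From high to low RGS18 ran MOLM-14 SAHA, MOLM-14 combination, MV4-11 SAHA, MV4-11 combination, MOLM-14 DMSO, MV4-11 ABT-869, MOLM-14 ABT-869 and MV4-11 DMSO, with overlap between the SAHA and combination groups of each line and among MOLM-14 DMSO and both ABT-869 groups next to it.

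RGS3, whose long forms also bind beta and gamma subunits, had signals of 11.6 to 229.9 over the 24 arrays on its main probe set. Its signal in MOLM-14 was 156.1, 180.1 and 223.1 with the combination, 142.1, 124.2 and 139.5 with ABT-869, 200.4, 229.3 and 180.8 with SAHA, and 131.7, 128.1 and 128.8 with DMSO. SAHA raised it 1.56-fold there (log2 difference 0.64, SE 0.15, adjusted p = 0.0426), and the combination gave 0.51 (adjusted p = 0.0911). The SAHA call was kept only without combination replicate 1 or 3 and lost without each of the other 10 arrays of the line (adjusted p up to 0.14), and it was lost in 5 of the 9 other settings. In MV4-11 the signal was 206.6, 86.4 and 11.6 with the combination, 139.2, 109 and 117.2 with ABT-869, 229.9, 187.3 and 211.6 with SAHA, and 147, 82 and 111 with DMSO. The combination arrays spread on both sides of DMSO, and SAHA arrays were all above DMSO, with a log2 difference of 0.92 (SE 0.83, adjusted p = 0.666).

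On the main probe sets the R12 and RZ members had the smallest ratios of highest to lowest group mean. RGS10, which acts on the Gi class, had signals of 3570 to 5157.5 over the 24 arrays, and RGS14, which carries a GoLoco motif and Ras-binding domains beside its RGS domain, had 472.6 to 706.6. Their log2 differences from DMSO were −0.14 to 0.20 for RGS10 and −0.26 to 0.13 for RGS14, and none passed the test. The next probe set of RGS14 ranged more widely, from 238.3 to 511.9, also without a call against DMSO. RGS19 had signals of 3162.6 to 5390.6. Its log2 difference from DMSO with the combination was −0.28 (SE 0.12, adjusted p = 0.202) in MV4-11 and −0.27 (SE 0.10, adjusted p = 0.152) in MOLM-14. In MOLM-14 this passed in 3 of the 9 other settings, with a lowest adjusted p of 0.00522 with a floor of 32.

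**Figure D2:**
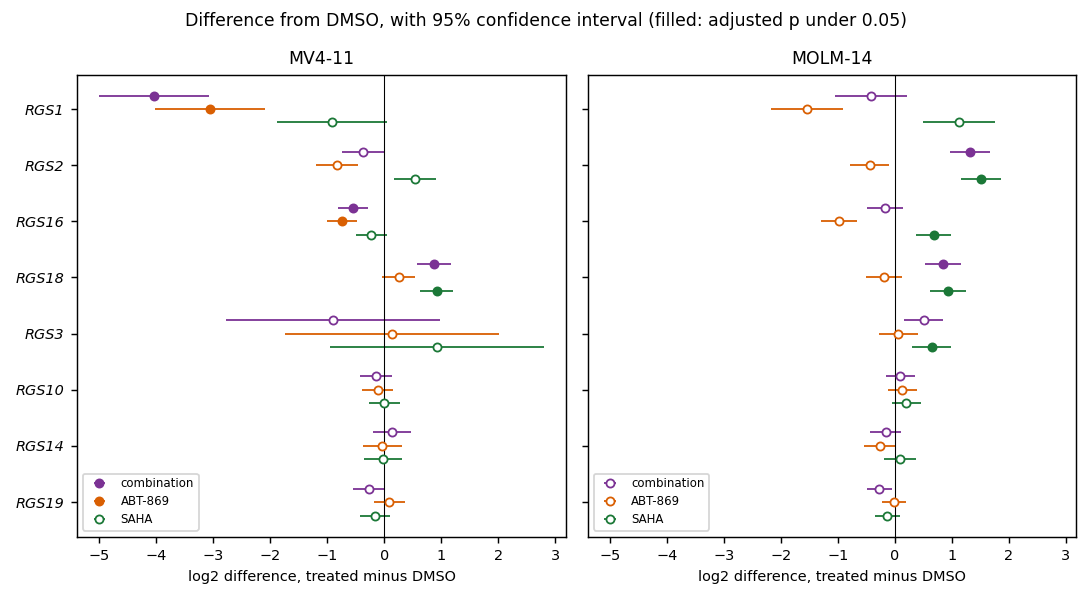
Log2 difference of each treatment from DMSO for the 8 RGS genes in MV4-11 (left) and MOLM-14 (right), with 95% confidence intervals from limma; filled points have an adjusted p under 0.05. In MV4-11 the combination lies at −4.03 for RGS1 and 0.88 for RGS18, and in MOLM-14 SAHA lies at 1.51 for RGS2 and 0.94 for RGS18.

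The combination was then set against each drug to show what the other drug added. Against ABT-869 in MOLM-14 it was higher for 4 of 8 genes, where 8.03% of all probe sets were called. RGS2 was 3.38-fold higher (log2 difference 1.76, SE 0.15, adjusted p = 0.00109), RGS18 2.05-fold (1.04, adjusted p = 0.0033), RGS1 2.18-fold (1.13, adjusted p = 0.0402) and RGS16 1.76-fold (0.81, adjusted p = 0.00861). The RGS1 call was lost without each single array of the line except combination replicate 2 (adjusted p up to 0.12). Against ABT-869 in MV4-11 only RGS18 was higher, 1 of 8 (3.7% of all probe sets), at 1.54-fold (0.63, SE 0.13, adjusted p = 0.0344), a call lost without each single array except combination replicate 3 (up to 0.104). Against SAHA in MV4-11 the combination was lower for 2 of 8 genes (0.749% of all probe sets). RGS1 was 8.67-fold lower (−3.12, SE 0.43, adjusted p = 0.0172) and RGS2 1.88-fold lower (−0.91, SE 0.16, adjusted p = 0.0475). The RGS1 call was lost without SAHA replicate 2 or 3 or combination replicate 1 or 2 (up to 0.0717), that of RGS2 without any 1 of the 12 arrays (0.0543 to 0.151), and both without the 5 deviating arrays. Against SAHA in MOLM-14 0 of 8 passed with limma (0.0146% of all probe sets). At an unadjusted p under 0.05 were 2 of 8 genes, and 5272 of all 54613 probe sets. The 2 genes were RGS1 at −1.55 (SE 0.28, adjusted p = 0.139) and RGS16 at −0.85 (SE 0.14, adjusted p = 0.108). Both passed with limma-trend (0.00294 and 0.000988). RGS18 differed little between the combination and SAHA, by −0.04 in MV4-11 (95% interval −0.34 to 0.25) and −0.09 in MOLM-14 (−0.40 to 0.22).

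Whether the combination differed from the added log2 effects of ABT-869 and SAHA was tested next, and limma detected no such departure. It passed for 0 of 8 genes in MV4-11, where 0.022% of all probe sets were called, with 1 gene at an unadjusted p under 0.05, and for 0 of 8 in MOLM-14 (0.0128%), with 0 at an unadjusted p under 0.05. The 1 gene was RGS16 in MV4-11, at 0.43 (SE 0.17, adjusted p = 0.538). RGS1 departed by −0.06 (95% interval −1.42 to 1.31) in MV4-11 and by −0.0015 (−0.89 to 0.89) in MOLM-14. RGS2 departed by −0.07 (−0.60 to 0.45) in MV4-11 and by 0.25 (−0.24 to 0.74) in MOLM-14, so these data leave room for departures of these sizes.

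The responses of the lines were compared directly, as MV4-11 minus MOLM-14, in 1 fit over the 24 arrays. The combination response was lower in MV4-11 for 2 of 8 genes (6.55% of all probe sets). For RGS1 the difference was −3.61 (SE 0.52, adjusted p = 0.000382) and for RGS2 −1.68 (SE 0.22, adjusted p = 0.00014), and both held without any single array. The SAHA response was lower in MV4-11 for 2 of 8 (1.23% of all probe sets), by −0.97 (SE 0.22, adjusted p = 0.0336) for RGS2 and by −0.91 (SE 0.17, adjusted p = 0.0117) for RGS16. The RGS2 call was lost without MV4-11 DMSO replicate 1, 2 or 3, MV4-11 SAHA replicate 1 or 2, MOLM-14 DMSO replicate 1 or 2, or MOLM-14 SAHA replicate 2 or 3 (adjusted p up to 0.103). For RGS1 the SAHA response differed by −2.05 (SE 0.52, adjusted p = 0.0679), which passed without MV4-11 ABT-869 replicate 1 or 3 or MOLM-14 combination replicate 2 (0.0248, 0.0312 and 0.0477). Those arrays have no part in the SAHA response, and its difference was unchanged without them. The ABT-869 response differed for 0 of 8 by limma (0.352% of all probe sets). At an unadjusted p under 0.05 were 2 of 8 genes, and 5585 of all 54613 probe sets. For RGS1, although the fall in MV4-11 was larger, the difference was −1.51 (SE 0.52, adjusted p = 0.294). RGS18 responses were near each other in the lines, with a difference of 0.03 (95% interval −0.34 to 0.40) for the combination and −0.02 (−0.39 to 0.35) for SAHA.
In cells given DMSO only, 3 of 8 genes differed between the lines (10.1% of all probe sets, with a median over all of 0.15). RGS1 was 2.32-fold higher in MV4-11 (log2 difference 1.21, SE 0.37, adjusted p = 0.044) and RGS2 1.56-fold higher (0.64, SE 0.15, adjusted p = 0.0111), while RGS18 was 1.32-fold lower (−0.40, SE 0.12, adjusted p = 0.0478). The RGS1 call was kept only without MV4-11 ABT-869 replicate 1 or 3, MV4-11 SAHA replicate 1 or 3, MV4-11 combination replicate 3 or MOLM-14 combination replicate 1 or 2, and lost without each of the other 17 arrays (adjusted p up to 0.126). That of RGS18 was kept only without MV4-11 combination replicate 2 or 3, MOLM-14 ABT-869 replicate 1 or MOLM-14 DMSO replicate 2, and lost without each of the other 20 (up to 0.21). That of RGS2 was lost only without MOLM-14 DMSO replicate 2 (0.0655). With the arrays centred on their medians RGS1 and RGS2 no longer passed (0.96 and 0.38, adjusted p = 0.125 and 0.201, in ranges of 0.0103 to 0.873 and 0.00137 to 0.201 over the 8 other settings).

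**Figure D3:**
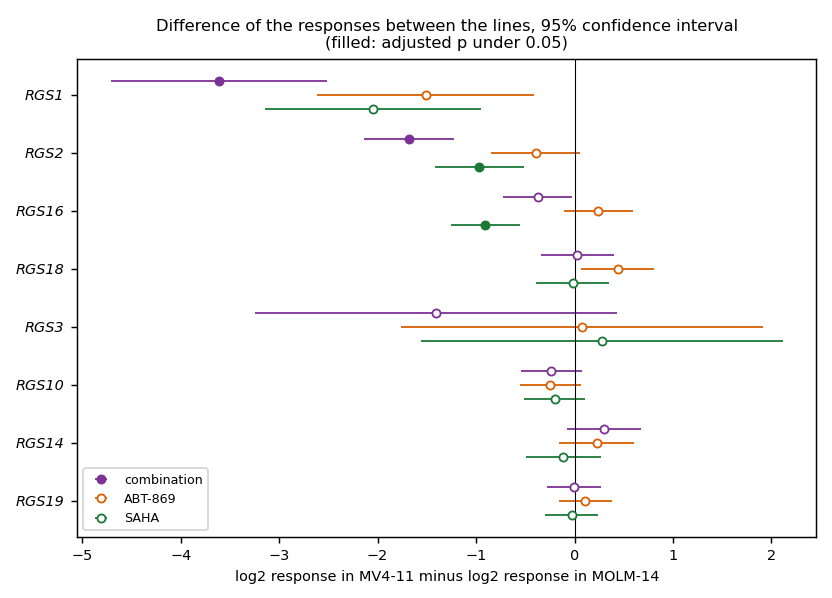
Difference of the log2 response to each treatment, MV4-11 minus MOLM-14, for the 8 RGS genes, with 95% confidence intervals from limma; filled points have an adjusted p under 0.05. The combination lies at −3.61 for RGS1 and −1.68 for RGS2, and RGS18 lies at 0.03.

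The choice of probe set was checked for the genes with several. The main probe set of RGS1 (mean log2 signal 9.96) and the next (7.70) had a Pearson r of 0.945 over the 24 arrays, and those of RGS16 (11.73 and 11.41) had 0.955. These arrays share lines and treatments, so r is a description. On its other bright probe set RGS1 in MV4-11 was 7.99-fold lower with the combination (adjusted p = 0.000674) and 3.67-fold lower with ABT-869, and its combination response again differed between the lines (−2.31, adjusted p = 0.000867). The SAHA response of RGS1 also differed on that probe set (−1.71, SE 0.37, adjusted p = 0.0301). In MOLM-14 its combination arrays there lay below all DMSO arrays, while those of the main probe set overlapped with DMSO. That difference was −0.68 (SE 0.22, adjusted p = 0.12) and did not pass the test. RGS16 on its other probe set fell with ABT-869 in MV4-11 (−0.73, adjusted p = 0.0482) and rose with SAHA in MOLM-14 (0.79, adjusted p = 0.0297), but had −0.18 (adjusted p = 0.506) with the combination in MV4-11. The remaining probe sets of these genes were dim. That of RGS1 (mean log2 signal 2.96) was under a signal of 32 on 21 arrays and had an r of 0.09 with the main one, and that of RGS16 (5.75) had −0.31. With the mean of all 3 probe sets in place of the main one, RGS1 no longer passed with the combination in MV4-11 (log2 difference −1.97, adjusted p = 0.0679) or in the combination response between the lines (−1.24, adjusted p = 0.471), and RGS16 no longer in the SAHA response (−0.37, adjusted p = 0.566). The further probe sets of RGS3, RGS10 and RGS14 had r of −0.23 to 0.19 with their main ones, so the values of those 3 genes rest on 1 probe set each. RGS2, RGS18 and RGS19 had no other.

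**Figure D4:**
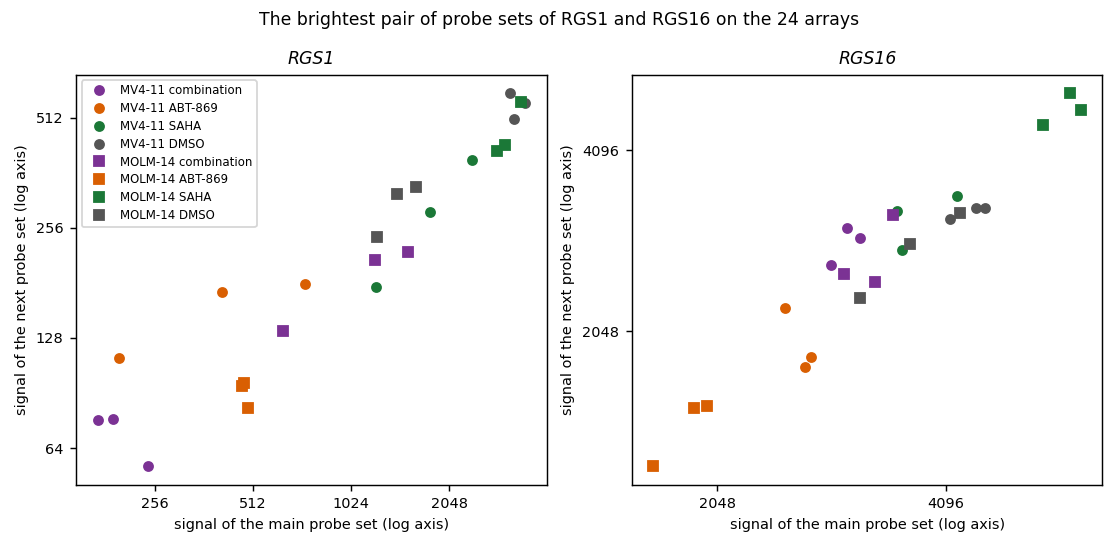
Signal of the main probe set (horizontal, log axis) against the next probe set (vertical, log axis) of RGS1 (left) and RGS16 (right) on the 24 arrays; circles are MV4-11 and squares MOLM-14, with treatments in color. The arrays rise together along each pair (r = 0.945 and 0.955).

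Of 13 other RGS genes 12 were measured, and 4 of them lay above the median level of all probe sets. With SAHA and with the combination in MOLM-14 1 of the 12 rose, RGS13, known from germinal center B cells and mast cells, whose gene lies between RGS1 and RGS2. The shares over all probe sets were 5.96% with the combination and 5.32% with SAHA, so 1 of 12 is near the background. Its signal in MOLM-14 was 138.4, 123.4 and 154.3 with the combination, 28.3, 33.3 and 39.6 with ABT-869, 88.4, 152.3 and 123.2 with SAHA, and 20.6, 36.8 and 56.7 with DMSO. All combination and SAHA arrays were above all DMSO arrays, at log2 differences of 1.98 (SE 0.35, adjusted p = 0.0128) and 1.76 (SE 0.35, adjusted p = 0.0234). In MV4-11 it was 34.3, 20.8 and 14.7 with the combination, 15.7, 37.1 and 16.1 with ABT-869, 50.7, 82.1 and 78.9 with SAHA, and 54.4, 35.2 and 53 with DMSO. RGS13 was followed further because of its position. Its combination response was lower in MV4-11 than in MOLM-14 (−3.07, SE 0.55, adjusted p = 0.00218), as were those of RGS1 and RGS2. RGS18, in the same stretch of genes, did not pass this comparison of the lines. A part of gene position in these values was not tested. The RGS13 signals were dim, and its other 2 probe sets did not exceed 60.4. Of these, 1 also passed with the combination in MOLM-14 (2.90, adjusted p = 0.0209) and in the combination response between the lines (−5.74, adjusted p = 0.0116). It did not pass with SAHA in MOLM-14 (adjusted p = 0.12), and the last probe set passed in none of these.

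The proteins on which RGS proteins act were read from lists of the pathway. Counts in these lists stand beside shares over all probe sets of 8.94% in MV4-11 and 5.96% in MOLM-14 for the combination, and of 2.46% and 5.32% in the same lines for SAHA, and no list is called particular from them. Of 13 alpha subunits the combination lowered 3 in MV4-11 and raised 1 and lowered 1 in MOLM-14. GNA15, the Gq-class subunit of blood cells, averaged 4263 ± 455 with the combination and 8854 ± 116 with DMSO in MV4-11 (SD, n = 3 each, log2 difference −1.06, adjusted p = 0.00274), and 5797 ± 673 with the combination and 10686 ± 1610 with DMSO in MOLM-14 (−0.88, adjusted p = 0.00998). GNA12, another alpha subunit, rose with the combination in MOLM-14 (0.66, adjusted p = 0.018). Of 17 beta and gamma subunits, the combination raised 3 and lowered 2 in MV4-11 and raised 2 and lowered 1 in MOLM-14, and SAHA raised 2 in MV4-11 and raised 2 and lowered 1 in MOLM-14. The largest rise was that of GNG11, a gamma subunit, which averaged 406 ± 57.5 with the combination, 346 ± 48.6 with SAHA and 70.8 ± 21.1 with DMSO in MV4-11, and 1158 ± 90.8 with the combination, 1086 ± 100.2 with SAHA and 234 ± 83.8 with DMSO in MOLM-14. For the combination its log2 difference was 2.56 in MV4-11 and 2.36 in MOLM-14, and for SAHA 2.33 in MV4-11 and 2.27 in MOLM-14, with adjusted p of 0.00415 or less. GNG7 fell by 1.31 on the log2 scale with the combination in MV4-11 (adjusted p = 0.00697), and GNB4 by 0.49 with the combination and 0.53 with SAHA in MOLM-14 (adjusted p = 0.0399 and 0.0318).

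Upstream of the G proteins, 33 of 37 listed receptors of leukocytes were measured, and the shares over all probe sets are again 8.94% and 5.96% for the combination and 2.46% and 5.32% for SAHA, in MV4-11 and MOLM-14. The combination raised 4 and lowered 2 of them in MV4-11 and raised 4 and lowered 1 in MOLM-14, and SAHA raised 5 in MV4-11 and raised 4 and lowered 1 in MOLM-14. GPR65, a proton sensor, had the largest rise with the combination in both lines (1.15 in MV4-11, adjusted p = 0.0023, and 0.94 in MOLM-14, adjusted p = 0.0253). With SAHA the largest rises were those of CCR2, the receptor of the monocyte chemokine CCL2, in MV4-11 (1.08, adjusted p = 0.0111) and of GPR84, a receptor of medium-chain fatty acids, in MOLM-14 (1.14, adjusted p = 0.00415). P2RY2, a nucleotide receptor, fell in MOLM-14 with the combination (−0.97, adjusted p = 0.00523) and with SAHA (−0.89, adjusted p = 0.0085). C5AR1, the receptor of complement C5a, had dim signals of 14.3 ± 14.6 with the combination and 65.9 ± 15.7 with DMSO in MV4-11 (SD, n = 3 each, adjusted p = 0.0381). With ABT-869 in MV4-11 the largest fall was that of GPR35 (−0.88, adjusted p = 0.0481). Among 6 measured receptor kinases and arrestins, which shut receptors off, 2 rose with the combination and 2 with SAHA in MOLM-14, and 1 rose with the combination in MV4-11. ARRB1, an arrestin, rose by 0.84 with the combination and 0.88 with SAHA in MOLM-14 (adjusted p = 0.00755 and 0.00901), and GRK3 by 0.63 with the combination in MV4-11 (adjusted p = 0.0167). Of 20 effectors 1 rose with the combination in MV4-11, and 2 rose with the combination and 1 with SAHA in MOLM-14. PREX1, a Rac activator that answers to beta and gamma subunits, had the largest rise in MOLM-14 (0.91 with the combination, adjusted p = 0.0161, and 0.84 with SAHA, adjusted p = 0.0249).

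Likeness over the 24 arrays was measured by Pearson r of log2 signals between each RGS gene and 11954 genes above the median level, as a description over arrays that share lines and treatments. The highest r was 0.939 for RGS1 (with BHLHE40, a transcriptional repressor, followed by RANBP9 at 0.919), 0.956 for RGS2 (CPNE3, then TGFBR2 at 0.949), 0.916 for RGS16 (HLX, then IL1RAP at 0.907) and 0.966 for RGS18 (NEGR1, then CCNA1 at 0.963). For RGS19 it was 0.919 (DCAF15, then ATN1 at 0.913), for RGS3 0.828 (KHK, then PDE4DIP at 0.826), for RGS10 0.806 (CLYBL, then P4HB at 0.798) and for RGS14 0.682 (TNKS1BP1, then PIP5K1C at 0.637). By Spearman rho the order differed for several genes. For RGS3, whose r includes the array at 11.6, PDE4DIP came highest (rho 0.865) and KHK had 0.691. For RGS2 the highest by rho were EEF1A2 (0.964) and FAM131B-AS2, and for RGS10 TMBIM6 (0.842) and LAT2. Among the RGS genes, RGS1 and RGS16 had an r of 0.831 over the 12 MV4-11 arrays and 0.971 over the 12 MOLM-14 arrays. RGS2 and RGS18 had 0.328 in MV4-11 and 0.976 in MOLM-14, and RGS1 and RGS18 had −0.40 in MV4-11 and 0.635 in MOLM-14. On the MV4-11 combination arrays RGS18 was high while RGS1 was at its lowest.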

How the data were processed

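Total RNA of 24 cultures was hybridized to Affymetrix U133 Plus 2.0 arrays. The authors deposited 1 linear signal intensity per probe set, background-corrected, summarised and scaled per array, and their software was not given in the sources used here. Signals under 1 (0.209% of values) were raised to 1 before log2, and 30.3% of values were under 32. After 62 controls were left out, 54613 probe sets were tested with limma (version 3.58.1, R 4.3.3) with Benjamini-Hochberg adjustment. Within a line 1 fit covered 12 arrays and 4 groups, and between lines 1 fit covered 24 arrays and 8 groups. Exact permutation of 3 against 3 arrays cannot go below p = 0.1, so it was not used. The fits were also run on simulated data with independent normal noise, changes only in brighter probe sets and no deviating arrays. That run checked the code and does not show how the fits behave on the real arrays. Probe sets were assigned by the platform annotation, with symbols updated by gene identifier for 41037 of 41091 probe sets that name 1 gene. Named genes are all 8 RGS genes, the largest rise and fall passing the test per pathway list and comparison with DMSO, and the 2 genes most like each RGS gene. A named effector is not reported here. The genes, lists and rules were chosen with earlier results of these data known. All 4 promoter windows were found in the RefSeq table. Alternatives were quantile normalization, centring, a floor of 32, limma-trend, omission of dim probe sets, 1 fit over 24 arrays, a replicate block, the mean of the probe sets of a gene, and leaving out 5 deviating arrays or each array in turn.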

Additional observations from a re-analysis of the deposited data

Results flagged for a closer look

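Responses that differed between the lines by a test of the difference itself were those of RGS1, RGS2 and RGS16, each given as MV4-11 minus MOLM-14 on the log2 scale. The combination response differed by −3.61 for RGS1 (−4.03 in MV4-11 and −0.42 in MOLM-14) and by −1.68 for RGS2 (−0.37 in MV4-11 and 1.31 in MOLM-14). The SAHA response differed by −0.97 for RGS2 (0.54 in MV4-11 and 1.51 in MOLM-14) and by −0.91 for RGS16 (−0.23 in MV4-11 and 0.68 in MOLM-14). These were differences of log2 responses from the DMSO level of each line.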

How the results depend on the processing

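Of 26 calls of single RGS genes, 26 held with a floor of 32 and 26 without dim probe sets, 25 with limma-trend, 24 with quantile normalization, 20 with arrays centred on their medians, 17 with a replicate block, 14 with the mean of the probe sets of a gene (1 turned its sign) and 13 without the 5 deviating arrays. Of the calls within a line, 2 were lost in 1 fit over the 24 arrays. The 14 calls that held with the mean of the probe sets were all of RGS2 and RGS18. These genes have 1 probe set each, so that setting could not change their values. No call of a gene with several probe sets held there, as 11 were lost and 1 turned its sign. A floor of 32 and the omission of dim probe sets left the differences of all 26 calls unchanged. Only the estimate of spread and the adjustment moved, so these 2 settings are weak checks. Shares over all probe sets were not counted for any of the other settings, so the counts below stand without a background. Counts of RGS genes called in a comparison moved by over 1.5 times as follows. With centred arrays, 1 was called for ABT-869 against DMSO and 1 for the combination against SAHA in MV4-11 (2 each before) and 1 for the DMSO level between lines (3 before). With a floor of 32, counts were 1 for ABT-869 (0 before) and 4 for the combination (2 before) against DMSO in MOLM-14, 2 for the combination against ABT-869 in MV4-11 (1 before), 1 for the combination against SAHA in MOLM-14 (0 before) and 5 for the DMSO level. Without dim probe sets they were 2 for SAHA against DMSO in MV4-11 (1 before), 1 for ABT-869 and 4 for the combination against DMSO in MOLM-14, 2 for the combination against ABT-869 in MV4-11, 2 for the combination against SAHA in MOLM-14 and 5 for the DMSO level. With limma-trend they were 2 for SAHA in MV4-11, 2 for ABT-869 in MOLM-14, 3 for the combination against ABT-869 in MV4-11, 2 for the combination against SAHA in MOLM-14 and 5 for the DMSO level. In 1 fit over the 24 arrays they were 2 for SAHA in MV4-11, 1 for ABT-869 in MOLM-14, 2 for the combination against ABT-869 in MV4-11 and 1 for the combination against SAHA in MOLM-14. With quantile normalization 1 passed for the SAHA response between lines (2 before).

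With the mean of the probe sets of a gene, which brings in dim ones, counts were 0 for ABT-869 and 1 for the combination against DMSO in MV4-11 (2 and 3 before), 2 for SAHA against DMSO and 2 for the combination against ABT-869 in MOLM-14 (4 each before), 1 for the combination against SAHA in MV4-11 and 1 for the SAHA response. The RGS1 difference between lines in DMSO turned to −0.23 there. Without the 5 deviating arrays counts were 0 for ABT-869 and 0 for the combination against DMSO, 0 for the combination against ABT-869 and 0 for the combination against SAHA in MV4-11, 2 for SAHA in MOLM-14 and 1 for the DMSO level. This setting left 1 MV4-11 combination array, so fewer samples were tested. Leaving out 1 array at a time gave 0 to 2 for ABT-869 against DMSO, 0 to 1 for the combination against ABT-869 and 0 to 1 for the combination against SAHA in MV4-11, 0 to 1 for ABT-869 and 2 to 5 for SAHA against DMSO in MOLM-14, 1 to 3 for the SAHA response and 1 to 4 for the DMSO level. The cause of the other moves was not tested. Among the 102 results not called, the sign turned 103 times over 42 of them, without a call on either side.

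Deviations of arrays with the same replicate number correlated at −0.04 to 0.05 in MV4-11 and −0.02 to 0.08 in MOLM-14. These correlations were taken over all probe sets, dim ones included. A pairing seen only in brighter probe sets could be missed, so pairing by replicate number was not excluded. With a replicate block, counts were 1 for ABT-869 against DMSO in MV4-11, 2 for SAHA against DMSO in MOLM-14, 0 for the combination against ABT-869 and 1 for the combination against SAHA in MV4-11 and 1 for the SAHA response. The number of arrays, 3 per group, limits the precision.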
